A study of Mus musculus with 12 samples.

Results

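The set described here is a group of genes of cholesterol synthesis and of its SREBP control: Hmgcs1, Insig1, Sqle, Srebf1, Srebf2, Idi1, Fdps and Scap. Its members were chosen by gene name, as every exonic and intronic row of the processed table whose transcript GENCODE M1 assigns to one of these 8 genes. 7 of the 8 genes were found, with 21 transcripts and 42 rows, among 34079 genes, 121429 transcripts and 213131 rows in all. No transcript in the table was assigned to Hmgcs1, which encodes the synthase that feeds the mevalonate pathway, so it was not analysed here. No member takes up sterol from outside the cell, and the set is therefore called by its synthesis and SREBP genes.

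The cells were mouse embryonic stem cells of the XY line DTCM23/49, grown with serum and LIF. All cells, including those behind the total RNA, received 200 µM 4sU, a uridine analogue that living cells build into new RNA. After 15, 30 or 60 min, RNA was biotinylated with biotin-HPDP, and the labeled (newly transcribed) fraction was recovered on streptavidin beads. Labeled and total RNA were each sequenced at 3 labeling times with 2 biological replicates, which gave 12 libraries in 6 groups of 2. Both replicates came from 1 culture that was divided and passaged separately, so p-values measure at most the spread between cultures of 1 line. No group without 4sU enters a comparison. In bulk RNA, fewer cells and less RNA per cell cannot be told apart.

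Animal cells make cholesterol from acetyl-CoA through mevalonate and squalene. The enzymes are switched on by SREBP transcription factors, which are made as precursors in the endoplasmic reticulum. When sterol is scarce, the escort protein Scap carries the precursor to the Golgi, where proteases release the active factor. When sterol is plentiful, Insig proteins hold Scap back. Srebf2 encodes the factor known best for cholesterol genes and Srebf1 that for fatty acid genes, and both are themselves SREBP targets.

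4 promoter sequences are shown because Srebf2, Insig1, Idi1 and Srebf1 passed the test in at least one comparison below, and because SREBP control is written in such sequences. They are the 250 bases before a RefSeq start, 5′ to 3′ on the gene's strand, in build GRCm38.p6. Capitals mark 4 motifs found on either strand: the sterol regulatory element core TCACCCCA, the CCAAT box ATTGG, the GC box GGGCGG and the E-box CACGTG, none of which overlap another here. The Srebf1 window is 1 of 3 for that gene, and alone among them holds both a CCAAT box and GC boxes. Of the others, 1 holds GC boxes only and 1 a CCAAT box only.
Srebf2, chr15:82147019-82147268, plus strand: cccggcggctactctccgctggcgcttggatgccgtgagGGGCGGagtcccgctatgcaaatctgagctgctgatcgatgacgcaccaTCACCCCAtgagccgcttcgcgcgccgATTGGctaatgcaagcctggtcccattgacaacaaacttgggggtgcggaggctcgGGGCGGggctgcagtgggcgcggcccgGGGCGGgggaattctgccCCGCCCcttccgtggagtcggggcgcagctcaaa
Insig1, chr5:28071162-28071411, plus strand: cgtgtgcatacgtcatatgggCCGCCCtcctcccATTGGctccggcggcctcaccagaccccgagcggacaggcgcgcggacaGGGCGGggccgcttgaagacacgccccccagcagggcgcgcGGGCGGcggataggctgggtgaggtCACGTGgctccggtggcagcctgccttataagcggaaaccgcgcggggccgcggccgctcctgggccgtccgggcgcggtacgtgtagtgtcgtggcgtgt
Idi1, chr13:8885356-8885605, plus strand: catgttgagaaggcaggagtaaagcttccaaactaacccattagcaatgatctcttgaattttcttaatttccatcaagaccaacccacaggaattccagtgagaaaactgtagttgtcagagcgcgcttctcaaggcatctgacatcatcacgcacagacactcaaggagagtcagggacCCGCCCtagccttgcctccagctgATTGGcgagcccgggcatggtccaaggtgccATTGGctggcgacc
Srebf1, chr11:60210472-60210721, minus strand: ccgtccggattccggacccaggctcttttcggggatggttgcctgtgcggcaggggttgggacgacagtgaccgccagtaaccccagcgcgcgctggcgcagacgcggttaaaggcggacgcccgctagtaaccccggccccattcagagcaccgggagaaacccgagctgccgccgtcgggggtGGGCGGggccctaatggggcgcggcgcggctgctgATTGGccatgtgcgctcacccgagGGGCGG

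Windows were found for 6 of the 8 genes (9 windows), and not for Sqle and Fdps. The sterol regulatory element core stood in 2 of these 9 windows, those of Srebf2 and Hmgcs1, in 1.34% of all 32851 windows, and in 0 of 40 windows of 31 other genes of the pathway described below. The copy of Srebf2 began 162 bases upstream of the start. CCAAT boxes stood in 6 of the 9 windows, in 33.8% of all windows and in 20 of the 40 windows of the other pathway genes, and in Idi1 they began 45 and 14 bases upstream. GC boxes stood in 7 of 9, in 32.7% of all windows and in 25 of the 40. E-boxes stood in 2 of 9, those of Insig1 and Scap, in 6.02% of all windows and in 4 of the 40. The motifs were chosen after the windows were read, and a match is a description of the letters, not of binding. Only exact letters were searched, so a window without a match is not shown to lack the element.

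On GRCm38.p6, Insig1 lies on chromosome 5 (28071412 to 28078662), Sqle on chromosome 15 (59315092 to 59331193) and Idi1 on chromosome 13 (8885606 to 8892396). Fdps lies on chromosome 3 (89093588 to 89101967) and Scap on chromosome 9 (110333288 to 110384949). Srebf2 lies on chromosome 15 (82147269 to 82205379) and holds Mir33, a microRNA gene. Srebf1 lies on chromosome 11 (60199084 to 60224186) and overlaps Rai1, Mir6921 and Mir6922. Insig1 overlaps Gm35223 and Fdps overlaps Gm22935, and reads of overlapping genes may be shared, since the strand setting is not given in the sources used here.

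Values are abundances per length of exonic or intronic sequence, summed over a gene's transcripts, and the exons and introns of every library add up to nearly the same sum (19988830 to 19992902). They therefore give shares of a library, not molecules per cell, and carry no read depth. All 7 embryonic stem cell markers were present in total RNA, with Nanog at 5712 ± 1939 (SD, n = 6). Of 8 markers of fibroblasts and primitive endoderm, the exons of Col3a1 and Postn were at 0 in every library and those of Gata6 did not exceed 1.37, while those of Gata4 and Thy1 reached 21.7 and 51.9. At the introns Gata4 ran from 88.4 to 339 in labeled and from 89.7 to 203 in total RNA, and no other of the 8 markers exceeded 8.39. The intronic share of a library was 6.53% to 7.41% in total RNA and 6.99% to 14.8% in labeled RNA, with the highest shares in replicate 1 at 15 min (14.8%) and at 60 min (13.9%).

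In total RNA, squalene epoxidase (Sqle), which oxidises squalene at the first oxygen-dependent step of sterol synthesis, was the most abundant member. Its exonic abundance was 940.0 ± 73.6 (SD, n = 6). Insig1, the sterol-dependent anchor of Scap, followed at 444 ± 48.5, and Idi1, the isomerase that makes the allylic building block of isoprenoids, at 308 ± 32.4. Srebf1 reached 233 ± 48.7, and Fdps, the farnesyl diphosphate synthase, 178 ± 24.4. Srebf2 stood at 90.1 ± 13.0 and Scap at 17.6 ± 2.52.

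Each gene in this order exceeded the next within 6 of 6 total RNA libraries. An exact sign-flip permutation test over libraries (two-sided) gave p = 0.03125 for each of 6 neighbouring pairs (adjusted p = 0.03125). This is the smallest p that 6 libraries allow. The order was taken from the means of the same 6 libraries, so this p cannot serve as a test of the order. The libraries were also flipped as independent units, although they are replicate cultures sampled at several labeling times. The p therefore does not measure the spread between cultures. The log2 gap was widest between Srebf2 and Scap (2.29) and narrowest between Srebf1 and Fdps (0.38). The ranges of Idi1 and Srebf1 overlapped, as did those of Srebf1 and Fdps, while the other 4 neighbouring pairs did not overlap. Sqle had 4 transcripts and Srebf1 12, the other members 1 each, so these levels cover the transcripts that could be assigned.

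**Figure D1:**
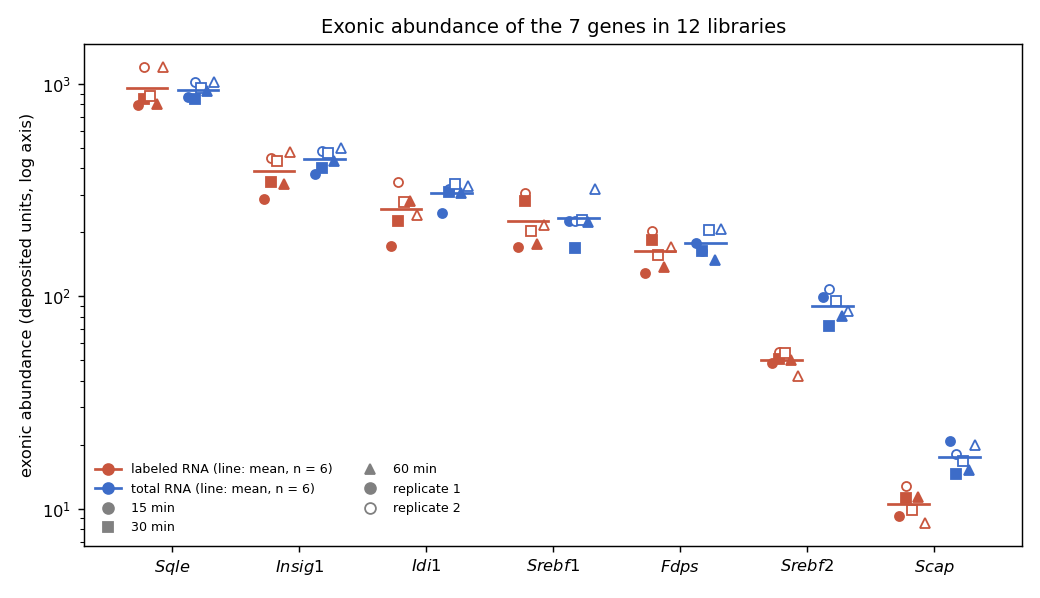
Exonic abundance (log axis, deposited units) of the 7 genes in each of 12 libraries, with labeled RNA in red and total RNA in blue, symbols for the labeling time, filled symbols for replicate 1 and lines for means of 6. The labeled values of Srebf2 (42.1 to 54.5) and Scap (8.58 to 12.8) lie below all of their total values, and those of the other 5 genes overlap.

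The first comparison asked which members took a larger or smaller share of newly transcribed than of total RNA, at the exons. Srebf2 was lower in labeled RNA in the fit of group means, which does not pair labeled with total libraries. It was the 1 member called of 6 tested, against 9.53% of all 25318 units called in either direction and 5.67% called lower (limma with Benjamini-Hochberg adjustment, threshold 0.05). With each labeled library paired to the total library of its time and replicate, nearly all exonic calls were lost, that of Srebf2 among them. A unit is a gene, or a transcript assigned to no gene, with a mean abundance of at least 20.

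In labeled RNA, the exonic abundance of Srebf2 was 48.8 and 54.5 at 15 min, 50.5 and 54.3 at 30 min, and 50.2 and 42.1 at 60 min (replicates 1 and 2). In total RNA it was 99.2 and 108, 72.4 and 95.0, and 81.2 and 85.0 at the same times. All 6 labeled values lay below all 6 total values, a pattern found in 6.32% of all units.

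The difference for Srebf2 was -0.83 ± 0.14 on the log2 scale (labeled minus total, SE), a ratio of 0.563, with an adjusted p of 0.0134 (limma). With the replicate number as a block the adjusted p was 0.0234, and with each labeled library paired to the total library of the same time and replicate it was 0.111, which ends the call. Leaving out the 30 min labeled replicate 1 or 2 gave 0.0586 and 0.0551, and leaving out any other single library kept it at or below 0.0499 (limma). It was also lost without the 15 min (0.0936) or the 30 min libraries (0.22), and without replicate 1 (0.539) or replicate 2 (0.267, limma). The last 2 fits hold 6 libraries, 1 per group, and so used RNA kind and labeling time as additive terms in place of group means. With these terms over all 12 libraries, an alternative added after seeing the data, the adjusted p was 0.00297 (limma).

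Scap had a similar gap but fell below the abundance filter, with a mean of 10.5 ± 1.57 in labeled and 17.6 ± 2.52 in total RNA (SD, n = 6). Its labeled values ran from 8.58 to 12.8 with a median of 10.6, and its total values from 14.6 to 20.9 with a median of 17.5. The groups did not overlap, but with the filter lifted its log2 difference of -0.69 was not called (limma, adjusted p = 0.166).

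The exons of the other 5 members were not called. Insig1 averaged 388 ± 74.2 in labeled and 444 ± 48.5 in total RNA, a log2 difference of -0.21 ± 0.16 (limma, adjusted p = 0.429). Idi1 averaged 257 ± 58.3 and 308 ± 32.4, a log2 difference of -0.28 ± 0.18 (adjusted p = 0.34, limma). In both genes the ranges overlapped.

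Sqle averaged 956 ± 193 in labeled RNA and its log2 difference was 0.01 ± 0.15 (limma, adjusted p = 0.986), the value closest to 0 among the members. Srebf1 differed by -0.06 ± 0.19 (adjusted p = 0.863) and Fdps by -0.13 ± 0.17 (adjusted p = 0.654, limma). The median over the 6 members tested was -0.17, against -0.01 over all units.

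The labeled values of these 5 genes spread widely between libraries, and the low ones were mostly those of replicate 1. Averaged over the 6 tested members on the log2 scale, each gene centred on its own mean, the lowest libraries were labeled replicate 1 at 15 min (-0.44) and at 60 min (-0.26), which are the 2 labeled libraries with the highest intronic share. Without these 2 libraries, an alternative added after seeing the data, Srebf2 differed by -0.84 (limma, adjusted p = 0.0119), while Fdps and Srebf1 turned to 0.03 and 0.13.

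At the level of transcripts, exons of no member but Srebf2 were called. Sqle had a pair of protein-coding transcripts with total exonic means of 357 and 355, and a transcript annotated as retained intron with 203 in total and 242 in labeled RNA. This last transcript differed by 0.25 ± 0.13 (limma on transcripts, adjusted p = 0.235). The most abundant transcript of Srebf1 averaged 62.6 in total RNA and was annotated as a processed transcript, without a coding frame.

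The second comparison asked the same of the introns, taken here as a measure of RNA not yet spliced. In Sqle and Srebf1, which have several transcripts, the intron of a transcript may be an exon of another, which was not tested. Intronic abundance of Insig1, Idi1 and Srebf1 was higher in labeled RNA, by 2.89-fold, 2.30-fold and 2.16-fold. These were 3 of 5 members tested, against 19.0% of all 12621 units called in either direction and 18.8% called higher (limma). The median difference of all units was itself 0.60 on the log2 scale, and the members' median was 1.11. Introns of Srebf2, not called here, reached the filter only through labeled RNA. With a mean of at least 20 required in labeled and in total RNA alike, an alternative added after seeing the data, the same 3 were called of 4 members tested, against 14.5% of 9966 units called higher (limma).

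For Insig1, labeled introns measured 122 and 50.7 at 15 min, 89.4 and 129 at 30 min, and 147 and 50.7 at 60 min. Total introns measured 26.4 and 25.9, 33.5 and 36.4, and 25.9 and 36.9. The groups did not overlap, although replicate 2 at 15 and at 60 min lay well below the other labeled libraries. The log2 difference was 1.53 ± 0.34 (limma, adjusted p = 0.0123), higher than that of 96.3% of units.

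For Idi1, labeled introns measured 118 and 88.6 at 15 min, 87.9 and 96.4 at 30 min, and 130.2 and 61.0 at 60 min. Total introns measured 41.6 and 26.9, 43.5 and 41.6, and 44.6 and 48.3. The groups did not overlap, and the log2 difference was 1.20 ± 0.29 (limma, adjusted p = 0.0157).

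For Srebf1, labeled introns measured 131 and 45.3 at 15 min, 96.9 and 112 at 30 min, and 89.3 and 49.6 at 60 min. Total introns stayed between 32.6 and 43.7 with a median of 37.2. The groups did not overlap, but the lowest labeled value was close to the highest total value, and the log2 difference was 1.11 ± 0.32 (limma, adjusted p = 0.0317). Srebf1 introns reached the filter only as a sum over 12 transcripts, the largest of which averaged 26.8 in labeled and 10.7 in total RNA. No single transcript of Srebf1 was tested at the introns.

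**Figure D2:**
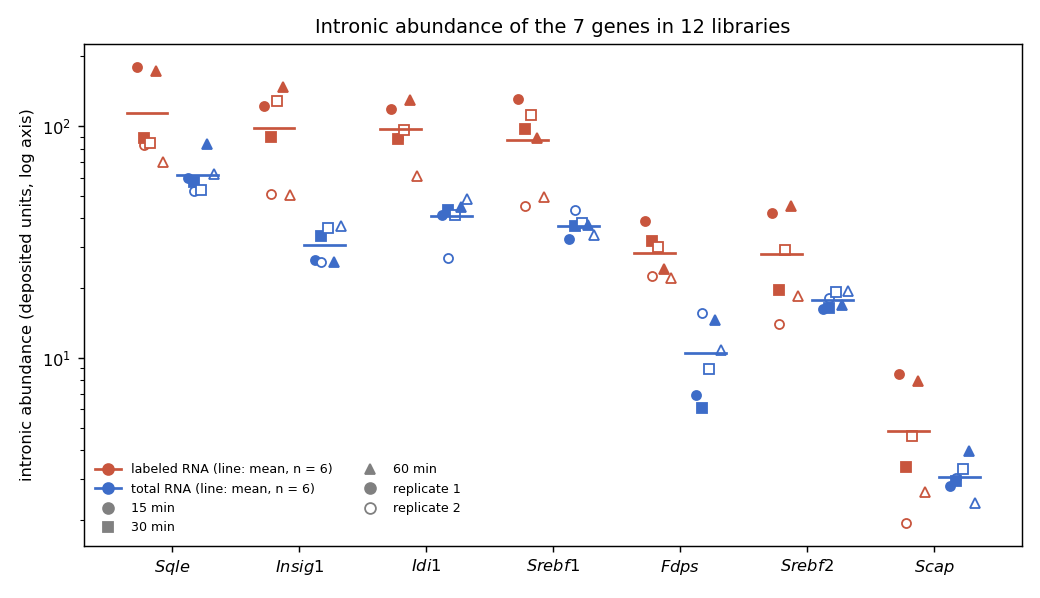
Intronic abundance (log axis, deposited units) of the 7 genes in each of 12 libraries, with labeled RNA in red and total RNA in blue, symbols for the labeling time, filled symbols for replicate 1 and lines for means of 6. For Insig1, Idi1, Srebf1 and Fdps every labeled library lies above every total library, while Sqle, Srebf2 and Scap overlap.

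Fdps introns were under the filter, at 28.3 ± 6.62 in labeled and 10.5 ± 3.96 in total RNA (SD, n = 6). Labeled values ran from 22.1 to 39.0 (median 27.2) and total values from 6.06 to 15.6 (median 9.85), without overlap. With the filter lifted the log2 difference was 1.40 (limma, adjusted p = 0.0222). Among the 5 members above the filter, 3 had groups without overlap and labeled above total, against 15.7% of all units. Where both kinds of RNA had to reach the filter, these were 3 of 4, against 13.2%.

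Introns of Sqle averaged 113 ± 49.4 in labeled and 61.5 ± 11.7 in total RNA, and the ranges overlapped. The log2 difference of 0.79 ± 0.32 was not called (limma, adjusted p = 0.0978). Introns of Srebf2 averaged 28.2 ± 13.1 and 17.7 ± 1.40, with no total value above 19.5, with a log2 difference of 0.52 ± 0.37 (adjusted p = 0.318, limma), below the median of all units. Scap introns were near the lowest recorded values, at 4.84 ± 2.79 and 3.07 ± 0.54, and were not tested.

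The intronic share of the whole library moved with these values. When every library was shifted to the same median, Insig1 still differed, by 0.89 (limma, adjusted p = 0.0168), while Idi1 (0.56, adjusted p = 0.0597) and Srebf1 (0.47, adjusted p = 0.0572) did not pass and Srebf2 turned to -0.13. Over all units that shift changed the calls from 2379 higher and 21 lower to 823 higher and 755 lower. Without the 2 labeled libraries richest in introns, the differences were 1.07, 0.95 and 0.72 for Insig1, Idi1 and Srebf1 (limma, adjusted p = 0.0011, 0.0015 and 0.0042). Scaled to the intronic total of each library, they were 1.03, 0.70 and 0.61 (adjusted p = 0.0092, 0.0176 and 0.0247, limma), both alternatives added after seeing the data.

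Single libraries decided several of these calls. Insig1 lost its call only without the 30 min labeled replicate 2 (limma, adjusted p = 0.0594). Idi1 lost it without either 30 min labeled library or any total library but the 15 min replicate 1, with adjusted p from 0.0549 to 0.0723. Srebf1 lost it without either 30 min labeled library or any total library, with adjusted p from 0.0791 to 0.113 (limma). None of the 3 passed without the 15 min (adjusted p from 0.0538 to 0.0863) or the 30 min libraries (0.257 to 0.375), and Srebf1 did not pass without the 60 min libraries (0.0627) or replicate 1 (0.222, limma, additive terms). With additive terms over all 12 libraries its adjusted p was 0.0111, and Sqle passed as well (0.0486, limma).

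The third comparison took the intron to exon ratio within each gene, which cancels a gene's own level. It was higher in labeled RNA for Insig1 and Idi1. These were 2 of the 4 members whose exons and introns reached the filter in both kinds of RNA, against 7.87% of the 8509 such units called higher. Over all 10486 units tested, 9.55% were called in either direction and 9.42% higher (limma). Srebf2 was called too, but its introns averaged 28.2 in labeled and 17.7 in total RNA and so entered the test only through the group in which they were higher, which favours a higher labeled ratio. The log2 differences were 1.74 ± 0.44 for Insig1 (adjusted p = 0.033), 1.49 ± 0.37 for Idi1 (adjusted p = 0.031) and, with that limit, 1.35 ± 0.36 for Srebf2 (adjusted p = 0.0372, limma). With the filter set in both kinds of RNA the adjusted p was 0.0365 for Insig1 and 0.0331 for Idi1 (limma). The median was then 0.61 over all units and 1.33 over the 4 members.

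Put as the intronic share of the gene's own exonic and intronic abundance, Insig1 had 20.6% ± 9.08 in labeled and 6.51% ± 0.98 in total RNA (SD, n = 6). Idi1 had 27.8% ± 7.73 and 11.8% ± 2.27. Srebf2 had the largest share of the 7 genes in both, with 34.6% ± 10.6 and 16.6% ± 2.01. Fdps, with introns under the filter, had 9.98% to 23.2% in labeled and 3.59% to 8.98% in total RNA. In each of these 4 genes the lowest labeled share exceeded the highest total share, while Sqle, Srebf1 and Scap overlapped. Of all 10486 units, 9.83% had this pattern, and of the 8509 units above the filter in both kinds of RNA, 9.55%, among them Insig1 and Idi1.

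Srebf1 (1.17 ± 0.42, adjusted p = 0.0804) and Sqle (0.78 ± 0.44, adjusted p = 0.212) were not called for the ratio (limma). With libraries shifted to equal medians, the ratio still differed for Insig1 (1.06) and Idi1 (0.81), with adjusted p of 0.0255 and 0.0442 (limma). Srebf2, whose introns reached the filter only through labeled RNA, then gave 0.67 (adjusted p = 0.0348, limma), which has the limit stated above. That shift changed the calls over all units from 988 higher and 13 lower to 341 higher and 167 lower. In the paired fit of 6 pairs Srebf1 passed as well (adjusted p = 0.0481, limma). The calls of Insig1, Idi1 and Srebf2 were lost with no filter on low values (adjusted p = 0.0695, 0.0675 and 0.0834, limma) and in 9 of the 12 fits that left out 1 library, namely all but those without a 15 min labeled library or the 60 min labeled replicate 2, with adjusted p of 0.0563 to 0.147. They were also lost without the 30 min (0.352 to 0.377) or 60 min libraries (0.0865 to 0.14) and without replicate 1 (0.107 to 0.264, limma, additive terms). With additive terms over all 12 libraries they were 0.00961 to 0.0119, and Srebf1 passed as well (0.0385, limma).

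**Figure D3:**
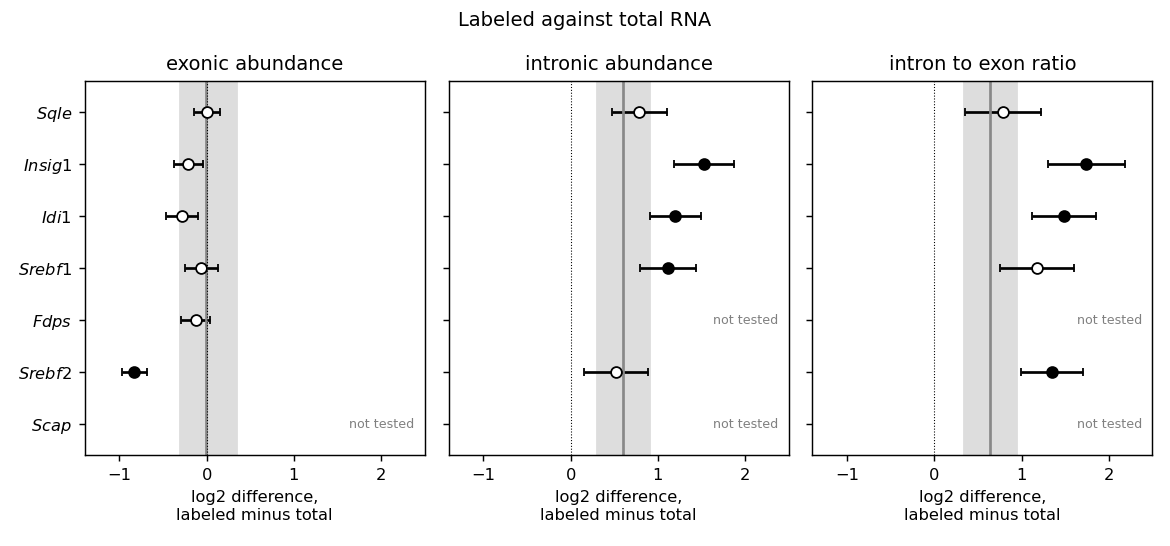
Log2 difference of labeled minus total RNA with its SE for each gene, for exonic abundance, intronic abundance and the intron to exon ratio, with filled points for adjusted p under 0.05, a grey line for the median of all units and a grey band for their middle quartiles. Srebf2 stands at -0.83 in the exonic panel, and Insig1 has the highest value in the other panels (1.53 and 1.74).

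Labeling time made no detectable difference to the exons. From 15 to 60 min the 6 tested members moved by -0.23 to 0.16 (log2) in labeled RNA and by -0.31 to 0.24 in total RNA, and the labeled change minus the total change ran from -0.47 to 0.15. None was called, and 0% of the 25318 units was called in the labeled, the total or the difference test (limma), with 252, 176 and 229 units at an unadjusted p under 0.05. These counts fall below a share of 0.05 of the units, which evenly spread p-values would give. The p-values thus ran higher than that, and the lack of calls is weak evidence of no change. Each test set 2 libraries against 2, and the SE of the labeled change was between 0.25 and 0.33 for the members, which is at least the size of most of these changes.

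Rates were then derived for each labeling time from the mean of the replicates, by simple division. The paper inferred its rates of the same names with the INSPEcT package, so the ranks here are not those of its rates. Synthesis was labeled exonic abundance per hour of labeling, processing was synthesis over total intronic abundance, and degradation was synthesis over total exonic less intronic abundance. Since every library has the same sum, rates fall with labeling time by construction, and only the rank among all units is given, as a percentile of the 3-time average in which the 15 min values weigh most. No test was made of the rates.

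Sqle had the highest synthesis rank of the 6 members above the filter, at the 89.2 percentile of 25284 units, with 87.0 to 91.5 over the 6 combinations of time and replicate. Insig1 stood at 77.4, Idi1 at 70.1, Srebf1 at 68.1 and Fdps at 60.2. Srebf2 stood apart at 27.5, with a range of 22.2 to 32.1 that did not meet the range of any other member. The members' median was 69.1. This rank restates labeled exonic abundance, and the order of the 6 members is that of their exonic abundance in total RNA. It is therefore not separate evidence about transcription, for Srebf2 as for the others.

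Processing ranks were highest for Fdps (81.5) and Sqle (81.5), followed by Insig1 (75.7), Idi1 (53.7) and Srebf1 (49.8), among 16823 units. Srebf2 was again lowest, at 21.5, with a range of 20.6 to 28.5. Over the combinations of time and replicate, Fdps ran from 65.6 to 93.7, Sqle from 66.4 to 87.4, Insig1 from 73.4 to 80.0 and Idi1 from 38.6 to 69.2, and these ranges overlap for the first 3. In replicate 2 alone Fdps (76.5) stood below Insig1 (77.4). The rate of Fdps divides by total introns of 6.06 to 15.6, under the filter.

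Degradation ranks were lowest for Srebf2, at 4.01 of 24438 units, with 7.66 to 34.6 over the combinations of time and replicate. This range overlapped those of all other members, and the rank of the average lay below it. Insig1 stood at 25.2, Idi1 at 31.2, Fdps at 32.7, Sqle at 41.8 and Srebf1 at 54.9. These ranks were less even than the others, and Srebf1 ran from 23.3 to 86.4. The synthesis, processing and degradation rates share labeled exonic abundance as their numerator. The low ranks of Srebf2 in these rates and its lower labeled share come from the same values and are not separate evidence.

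**Figure D4:**
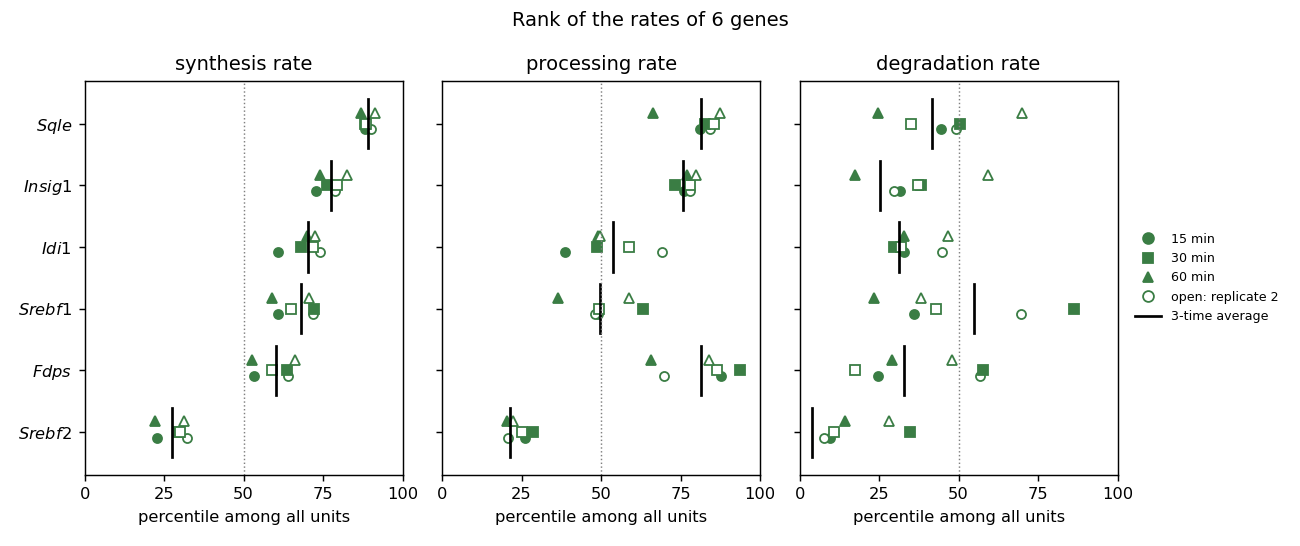
Percentile of the synthesis, processing and degradation rates of 6 genes among all units with a rate, for each labeling time (symbols) and replicate (filled for 1, open for 2), with a black bar for the 3-time average of both replicates. Srebf2 has the lowest bar in each panel (27.5, 21.5 and 4.01), and the rates of all panels share labeled exonic abundance as their numerator.

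Other genes of the pathway came from lists of the mevalonate arm, the sterol arm, SREBP processing, sterol uptake and transport, and fatty acid synthesis, 40 genes in all. At the exons 37 were tested, with 0 higher and 2 lower in labeled RNA and a median of -0.20 on the log2 scale. The 2 are 5.41% of those tested, against 5.67% of all units. Those 2 were Scd2 and Scd1, desaturases that make monounsaturated fatty acids.

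Scd2 averaged 395 ± 85.3 in labeled and 682 ± 58.5 in total RNA, a log2 difference of -0.81 ± 0.15 (limma, adjusted p = 0.017). Scd1 averaged 179 ± 39.0 and 286 ± 30.6 (-0.70 ± 0.18, adjusted p = 0.0406, limma). In the fit of 6 pairs neither passed (adjusted p = 0.106 and 0.157, limma). Leaving out single libraries kept the call of Scd2 in 5 and of Scd1 in 4 of 12 fits.

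At the introns 28 of the 40 were tested and 4 were higher, which is 14.3% against 18.8% of all units, with a median of 0.82. They were Dhcr7, the last reductase before cholesterol (1.23), Scd2 (1.16), the mevalonate kinase Mvk (1.15) and the sterol carrier Stard4 (1.03), with adjusted p from 0.0157 to 0.0472 (limma). For the ratio 5 of 28 were higher, or 17.9% against 9.42% of all units, these 4 and the demethylase Cyp51 (1.19, adjusted p = 0.0481, limma), with a median of 0.93 on the log2 scale. These genes were named after their values were seen. Introns of Mvk and Stard4, which both averaged 16.2 in total RNA, reached the filter only through labeled RNA. With the filter set in both kinds of RNA, Dhcr7 and Scd2 were higher of 22 genes tested (9.09%) in either comparison, against 14.5% of units at the introns and 7.87% for the ratio, and Cyp51 missed the threshold for the ratio (0.0513, limma). Leaving out single libraries kept the intronic calls of Dhcr7 and Scd2 in 4 and those of Mvk and Stard4 in 2 of 12 fits, and the ratio calls of Dhcr7, Scd2 and Stard4 in 4 and those of Mvk and Cyp51 in 3. With libraries shifted to equal medians Mvk and Stard4 passed neither comparison and Cyp51 did not pass the ratio. In the fit of 6 pairs Stard4 missed the threshold at the introns (0.0544), and Cyp51 (0.0536) and Mvk (0.0544) missed it for the ratio (limma).

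The exonic profile of single members over the 12 libraries followed the mean of the other members with Pearson's r of 0.81 for Insig1, 0.75 for Fdps, 0.72 for Idi1, 0.58 for Srebf1 and 0.53 for Sqle, and 0.38 for Srebf2. Among pairs, Srebf1 and Fdps (0.81) were most alike and Sqle and Srebf2 (-0.01) least. The units outside the set most like the members' mean were Maged1 (0.95), Smtnl2 (0.95), Fscn1 (0.94), the unassigned transcript ENSMUST00000202006 (0.94) and Fbxo21 (0.93). These 12 points share scaling and the division into labeled and total RNA, and the values are descriptions.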

How the data were processed

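Per the labels, 12 libraries of labeled and total RNA from 4sU-treated mouse embryonic stem cells were prepared with Ovation RNA-Seq from 10 ng of RNA. The authors removed ribosomal reads with STAR 2.5.0, aligned the rest to exonic and intronic sequence and quantified them with RSEM. The submitters' processing notes name mm10. The deposited values are a signal normalized by the authors for length and library sum, with nothing below 1.01. Counts and read depth cannot be recovered from them, so no counting interval is given. Columns map to samples by name.

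Missing values were taken as 0 and transcripts summed to genes through GENCODE M1, used for names only, which assigned 69.05% of transcripts. The other 37582 stayed units of their own, so gene sums may miss isoforms. log2(value + 1) of units with a mean of at least 20 (for the ratio, in both exons and introns) was fitted with limma 3.58.1 in R 4.3.3 with 6 group means, its variance prior trended on the mean, and two-sided p-values were adjusted by Benjamini-Hochberg (threshold 0.05). Fold changes are on the log2(value + 1) scale. The fits were also run on simulated data with independent noise in each library. That simulation held no replicate effect and no shift of whole libraries, so it cannot show how the fits behave under either. Rates and ranks were computed with Python 3.11.15.

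The sample titles give replicate numbers only, and the paper describes a culture divided in 2 and passaged. Equal replicate numbers were taken to mark 1 of these 2 cultures. Deviations of same-numbered libraries from their group means correlated between -0.24 and 0.30 over 15 pairs of groups. Alternatives changed the pseudocount, filter, scaling, unit, trend, block, model terms and libraries, and fits without a replicate number used RNA kind and labeling time as additive terms. The members and lists were chosen with earlier results of these data known. 1 gene of the lists is not reported here. Named genes were all members, other list genes called in the exonic comparison (at most 4 a list), and the 5 units most like the members' mean. Dhcr7, Mvk, Stard4 and Cyp51 were named outside this rule, for their intronic or ratio calls, after their values were seen. RefSeq supplied the promoter windows and positions (GRCm38.p6).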

Additional observations from a re-analysis of the deposited data

Results flagged for a closer look

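Among 28 groups of 6 libraries (7 genes, exons and introns, labeled and total RNA), 3 held a value set apart from its neighbours by more than Dixon's limit for 6 values, as a share of the group's range. Chance alone flags about 1 in 20 groups. In total RNA, the exonic abundance of Idi1 at 15 min in replicate 1 was 246.99, against 304.66 for the next. Its intronic abundance at 15 min in replicate 2 was 26.9, against 41.55 for the next. The intronic abundance of Sqle at 60 min in replicate 1 was 84.15, against 62.11 for the next.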

How the results depend on the processing

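Over the members' 433 alternative fits, 332 kept direction and side of the threshold, 72 lost a call, 10 gained one and 19 changed sign. Results not called in the main fit are among the 433 and could not lose a call. The exonic call of Srebf2 was lost in 7 fits and kept in 20. Intronic calls were lost in 3 and kept in 25 for Insig1, 10 and 18 for Idi1, and 13 and 14 for Srebf1. Ratio calls were lost in 13 and kept in 14 for Insig1 and for Idi1, and 13 and 13 for Srebf2. For exons, Sqle gave -0.058 with equal medians, -0.041 on transcripts, -0.022 without the 15 min and -0.00025 without the 60 min libraries. Srebf1 gave 0.14 without the 60 min libraries and, without the 2 labeled libraries richest in introns, 0.13, where Fdps gave 0.033. For introns, Srebf2 gave -0.13 with equal medians. Leaving out replicates gave exonic values from -0.11 to 0.12 for Sqle and from -0.20 to 0.079 for Srebf1.

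The number tested changes with the unit and the filter, so those counts are not on the same base. On transcripts the exonic count of 2412 of 25318 units became 4975 of 45537. It became 3681 with equal medians and 4941 without the 2 intron-rich libraries, which was added after seeing the data. It became 177, 0 and 1366 without the 15, 30 and 60 min libraries, and 0 to 4623 without single replicates. The intronic count of 2400 became 3665 unfiltered, 1578 with equal medians, 5070 without the 2 intron-rich libraries, 895, 0 and 1494 without each labeling time, and 516 to 6537 without single replicates. The ratio count of 1001 became 68 unfiltered, 508 with equal medians, 2411 without the 2 intron-rich libraries, 4 and 6 without the 30 and 60 min libraries, and 0 to 6389 without single replicates. Where the 30 min libraries were left out, no member was called. A further pair of alternatives was added after seeing the data. With RNA kind and labeling time as additive terms, the model used where a replicate number was left out, the counts over all 12 libraries were 4017, 3625 and 2296. With the filter set in labeled and in total RNA they were 2110, 1457 and 678. With the replicate block, which changed no member's call, the counts were 1856, 2825 and 1284. With the block of 6 pairs the exonic count was 2, and the intronic and ratio counts were 2579 and 1420. The cause of these shifts was not tested.

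The time counts of 0 became, for labeled RNA, 5 unfiltered and 1 without the trend. For total RNA they became 7 with a pseudocount of 20, 12 unfiltered and 7 without the trend, and for their difference 3, 12 and 8. Leaving out replicates gave 0 to 6, 0 to 9 and 0 to 6. The members' median synthesis percentile of 69.1 became 84.8 unfiltered and 76.3 on transcripts, and 64.8 to 71.8 with 1 replicate. The processing percentile of 64.7 became 71.2 on transcripts and 62.5 to 70.6 with 1 replicate, and the degradation percentile of 32.0 ran from 27.4 to 38.9.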

Other observations

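Exons of Insig1 and Sqle were higher in replicate 2 than in replicate 1 in all 6 groups, labeled and total RNA alike, with mean log2 differences of 0.37 and 0.29. Of all 25318 units, 0.928% were higher in replicate 2 in all 6 groups. Idi1 and Srebf2 were higher in replicate 2 in 5 of 6 groups, Srebf1 and Fdps in 4 and Scap in 3. The pattern was noticed in these data, and each culture is 1 passage line.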
